A study of Mus musculus with 9 samples.

Results

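The genes described here mark cardiac fibroblasts and the state these cells enter after injury, the myofibroblast. The set was given as a list of 10 gene symbols, and all 10 were found among the 54532 rows of the count table and passed the filter on low counts in every comparison. Pdgfra, Tcf21, Gsn and Dpt mark resident fibroblasts, and Postn, Acta2, Tagln, Fap, Cthrc1 and Meox1 mark activated fibroblasts. The libraries come from hearts of C57BL/6J males, all wild type and 8 to 10 weeks of age. In the MIRI group (myocardial ischemia/reperfusion injury) the left anterior descending artery was tied for 30 min and then released for 24 h, and the mice received saline. In the GXNI group the operation was the same. Guanxinning injection, a preparation of Danshen and Chuanxiong, was given at 9 mL/kg through the tail vein within 10 min of ischemia. In the sham group the thread was passed under the artery and not tied, and saline was given. Each group had 3 libraries, each from 1 mouse, so the comparisons rest on 3 mice per group and a single time after injury.

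Fibroblasts of the healthy heart hold the collagen network together and carry the PDGF receptor alpha on their surface. After ischemia the cells at the infarct border proliferate, lose part of their resident transcripts and switch on matrix and contractile genes, under signals that include TGF-beta and mechanical load. Genes of the contractile part of this program, among them Acta2, are driven by serum response factor (SRF), which binds a DNA element called the CArG box. In bulk heart RNA, fewer cells of a type and less RNA of a gene per cell cannot be told apart.

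The libraries held between 17119454 and 22811295 counts, and 3 counts were worth 0.132 to 0.175 CPM, the count of a gene as a share of the library scaled to a common size. The labels name the cell type as cardiomyocytes, but the summed level of 8 endothelial markers was 699 to 1229 normalised CPM in the 9 libraries, and that of 9 cardiomyocyte markers was 37610 to 61460. The methods of the study describe the samples as heart tissue. A pair of the reperfused libraries lay beside the sham libraries. On the first principal component of 13410 genes, which held 70.2% of the variance, sham lay between -53.9 and -45.6, the library labelled MIRI 2 at -39.8 and GXNI 1 at -38.1, while GXNI 2 lay at 16.5, MIRI 1 at 54.5, MIRI 3 at 73.4 and GXNI 3 at 83.2. Each of the 6 reperfused libraries had a higher mean Spearman correlation across genes with the other reperfused group than with its own, and the libraries labelled MIRI 2 and GXNI 1 were closer still to sham, at 0.971 and 0.977. MIRI 2 correlated at 0.916 with its own group and 0.943 with GXNI. The library labelled GXNI 3 was nearest to MIRI 3, at 0.985. The summed level of 9 neutrophil markers was 26.2 to 55.3 CPM in sham hearts, 736, 25.3 and 669 CPM in MIRI 1 to 3, and 43.6, 214 and 730 CPM in GXNI 1 to 3. An exchange of the labels of MIRI 2 and GXNI 3 would change the meaning of the MIRI and GXNI values, and these data do not settle whether one occurred. Results are given by the labels as deposited, with the reperfused hearts of both groups pooled, and without the libraries that stand apart.

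Acta2 (chromosome 19, 34241090 to 34255590, reverse strand; GRCm38, as for all genes here) encodes smooth muscle alpha-actin, the actin that fills the stress fibres of myofibroblasts and of vascular smooth muscle. Its elements for transcription factors are among the best known of this set, so the bases before the start of each gene were searched on both strands. RefSeq promoters of GRCm38.p6 were available for 6 of the 10 genes (Pdgfra, Tcf21, Gsn, Dpt, Postn and Acta2), with 9 promoters in all, and the 250 bases before each start were read. The motifs were the CArG box, a run of A and T bases between CC and GG, and the MCAT element CATTCC, bound by TEAD factors. An exact CArG box was found before 0 of the 6 genes, against 1.62% of 27025 genes with a promoter in the table. With 1 mismatch, a search added after the first result was seen, it was found before 2 of the 6, Acta2 and Gsn, against 19.9% of all such genes. CATTCC was found before 1 of the 6, Acta2, against 14.4% of all such genes. The 4 matches are shown with their flanks, in the direction of the gene and with the match in capitals, since Acta2 is the member whose response separated MIRI from sham hearts with the smallest p.
Acta2, positions -146 to -141 from the start (MCAT element, reverse strand of the gene), chr19:34255502-34255531: gagcagaacagaGGAATGcagtggaagaga
Acta2, positions -84 to -75 from the start (CArG box with 1 mismatch), chr19:34255438-34255467: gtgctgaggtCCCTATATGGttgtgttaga
Acta2, positions -34 to -25 from the start (CArG box with 1 mismatch), chr19:34255388-34255417: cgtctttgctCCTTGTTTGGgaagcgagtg
Gsn, positions -162 to -153 from the start (CArG box with 1 mismatch), chr2:35256187-35256216: gactcagtttCCTTCTATGGaccgcagaga
Positions count from the RefSeq start, and the 3 Acta2 sites lie inside the gene as GENCODE M21 draws it, since its start there is at 34255590. These are matches of letters, and binding was not measured. An absent match says only that these letters do not occur in the window read.

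In sham hearts the 10 genes covered a wide range of levels, compared here as normalised CPM per kb of exon (mean ± SD, n = 3). Gsn was highest at 340.6 ± 34.6, followed by Dpt at 52.1 ± 2.3, Acta2 at 37.0 ± 8.0 and Pdgfra at 5.18 ± 0.55. Postn (3.10 ± 0.41), Tcf21 (2.96 ± 0.30) and Meox1 (2.38 ± 0.79) followed, and their ranges over the 3 sham hearts overlapped. Fap (0.538 ± 0.116), Cthrc1 (0.472 ± 0.244) and Tagln (0.346 ± 0.151) were lowest, again with overlapping ranges. On this scale Gsn and Dpt lay above every myofibroblast gene, Acta2 lay between Dpt and Pdgfra, and the resident gene Tcf21 was level with Postn and Meox1.

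**Figure D1:**
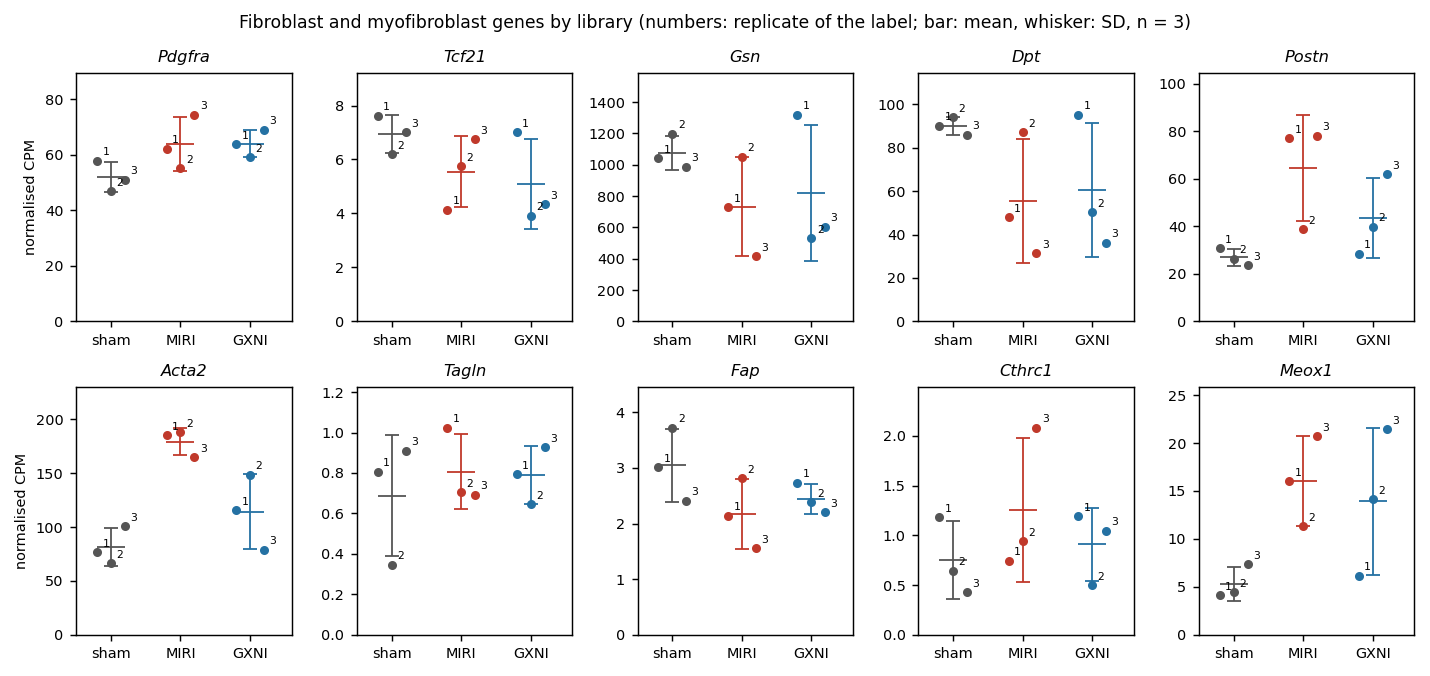
Normalised CPM of each of the 10 genes in the 9 libraries, by group (horizontal bar, mean; whisker, SD, n = 3); the number beside a point is the replicate number of its label. Acta2 lay between 165 and 188 CPM in the 3 MIRI hearts and between 66.5 and 101 CPM in the 3 sham hearts, whereas Gsn and Dpt of MIRI 2 and GXNI 1 lay inside or above the sham range.

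The resident genes did not pass the test between any groups as labelled. Pdgfra (chromosome 5, 75152292 to 75198215, forward strand) encodes the surface receptor by which cardiac fibroblasts are usually recognised. It was at 57.8, 46.9 and 51.0 CPM in sham hearts 1 to 3, at 62.1, 55.1 and 74.4 CPM in MIRI hearts and at 63.8, 59.2 and 69.0 CPM in GXNI hearts. All 3 GXNI hearts lay above the highest sham heart, whereas MIRI 2 fell inside the sham range. Against sham, the log2 fold changes of Pdgfra were 0.31 (SE 0.16) for MIRI and 0.31 (SE 0.14) for GXNI hearts, with unadjusted p of 0.0881 and 0.0551 in edgeR's quasi-likelihood test. With the 6 reperfused hearts together it was 0.31 with a 95% interval of 0.03 to 0.58 (unadjusted p = 0.0308, edgeR), below the fold change of 1.5 required for a call.

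Tcf21 (chromosome 10, 22817281 to 22820174, reverse strand) encodes the transcription factor of epicardium-derived fibroblasts and falls as these cells activate. It was at 7.63, 6.20 and 7.01 CPM in sham, 4.14, 5.76 and 6.76 CPM in MIRI and 7.00, 3.92 and 4.35 CPM in GXNI hearts. Of the 6 reperfused hearts, 4 lay below all sham hearts, and MIRI 3 and GXNI 1 lay inside the sham range. The log2 fold change of the reperfused hearts together was -0.38 (standard error 0.22), with a 95% interval of -0.88 to 0.12.

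Gsn (chromosome 2, 35256380 to 35307892, forward strand) encodes the actin-severing protein gelsolin, one of the most abundant transcripts of resident cardiac fibroblasts. It was at 1041, 1197 and 987 CPM in sham, 728, 1051 and 417 CPM in MIRI and 1320, 533 and 604 CPM in GXNI hearts. Dpt (chromosome 1, 164796644 to 164824266, forward strand) encodes dermatopontin, a small matrix protein of collagen fibrils, and marks a fibroblast state shared by many tissues. Its levels were 90.0, 93.8 and 85.9 CPM in sham, 47.9, 87.0 and 31.3 CPM in MIRI and 95.2, 50.3 and 36.2 CPM in GXNI hearts. Both genes showed the same split, with MIRI 1, MIRI 3, GXNI 2 and GXNI 3 below every sham heart and MIRI 2 and GXNI 1 inside or above the sham range. Against sham, the log2 fold changes in MIRI hearts were -0.54 (standard error 0.32) for Gsn and -0.69 (0.34) for Dpt, and those in GXNI hearts were -0.38 (0.35) and -0.56 (0.34). None of these passed an unadjusted p of 0.01 in edgeR's test.

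The myofibroblast genes Postn, Acta2 and Meox1 rose in MIRI hearts. Postn (chromosome 3, 54361109 to 54391037, forward strand) encodes periostin, the matricellular protein used to define activated cardiac fibroblasts. It was at 30.8, 26.4 and 23.7 CPM in sham, 77.1, 38.9 and 78.1 CPM in MIRI and 28.6, 39.9 and 61.9 CPM in GXNI hearts. All MIRI hearts lay above all sham hearts, with MIRI 2 lowest of them, and GXNI 1 lay inside the sham range. The log2 fold change in MIRI against sham was 1.27 (standard error 0.28), a 2.42-fold rise (unadjusted p = 0.00269, adjusted p = 0.0772, edgeR's quasi-likelihood test with Benjamini-Hochberg adjustment).

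Acta2 was at 76.6, 66.5 and 101 CPM in sham, 185, 188 and 165 CPM in MIRI and 116, 149 and 78.8 CPM in GXNI hearts. The 3 MIRI hearts lay close together and above all other hearts, MIRI 2 being the highest, and GXNI 3 lay inside the sham range. The log2 fold change in MIRI against sham was 1.15 (standard error 0.18), a 2.23-fold rise (unadjusted p = 0.000371, adjusted p = 0.0607, edgeR). For Acta2, MIRI 2 was thus the MIRI heart farthest from sham, whereas for Gsn, Dpt and Postn it was the nearest.

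Meox1 (chromosome 11, 101877510 to 101894374, reverse strand) encodes a homeobox transcription factor that drives the activated fibroblast program. It was at 4.14, 4.41 and 7.33 CPM in sham, 16.0, 11.3 and 20.7 CPM in MIRI and 6.16, 14.1 and 21.5 CPM in GXNI hearts. All MIRI hearts and GXNI 2 and 3 lay above the sham hearts, and GXNI 1 lay inside their range. The log2 fold change in MIRI against sham was 1.61 (standard error 0.31), a 3.05-fold rise and the largest of the 10 genes (unadjusted p = 0.00132, adjusted p = 0.0684, edgeR).

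The other 3 myofibroblast genes were scarce and did not pass the test. Fap (chromosome 2, 62500943 to 62574075, reverse strand) encodes fibroblast activation protein, a surface protease of activated fibroblasts. It had 36 to 75 counts per library, at 3.01, 3.72 and 2.41 CPM in sham, 2.14, 2.82 and 1.56 CPM in MIRI and 2.73, 2.38 and 2.21 CPM in GXNI hearts. Its log2 fold change in the reperfused hearts together was -0.40, with a 95% interval of -0.93 to 0.13, opposite in sign to that of Postn, Acta2 and Meox1. Cthrc1 (chromosome 15, 39076932 to 39087121, forward strand) encodes a secreted protein of the reparative fibroblasts that appear in the scar. It had 8 to 48 counts per library, with its highest level, 2.08 CPM, in MIRI 3 and a range of 0.428 to 1.19 CPM in the other 8 hearts. Its log2 fold change in MIRI against sham was 0.75, with a 95% interval of -0.53 to 2.03, so that neither a rise nor a fall was detectable at this depth.

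Tagln (chromosome 9, 45929619 to 45936058, reverse strand) encodes transgelin (SM22), an actin-binding protein of smooth muscle and myofibroblasts that is usually abundant where Acta2 is. It had 15, 7 and 17 counts in sham, 22, 12 and 16 in MIRI and 16, 13 and 16 in GXNI hearts, so that in sham hearts its level per kb was 0.346 CPM against 37.0 CPM for Acta2. In the GENCODE M21 annotation 1349 of its 1988 exon bases, 67.9%, also lie in exons of genes on the opposite strand, 1241 in those of Gm48529 and 108 in those of Pcsk7. Gm48529 had 6 to 16 counts per library and Pcsk7 367 to 600. Among the other 9 genes, 6.5% of the exon bases of Pdgfra lie in exons of other genes on either strand, and 0 of the bases of the rest. The strand setting of the counting is not given in the sources used here, and whether shared reads were left out of the Tagln count was not tested, so its values are uncertain and its log2 fold changes of 0.25 in MIRI and 0.21 in GXNI against sham cannot be read as those of the transcript.

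By count, 3 of the 10 genes were called higher and 0 lower in MIRI against sham, where 6.15% of the 14644 genes tested were called higher and 2.82% lower, 8.97% in either direction. A call required an unadjusted p no higher than 0.01 and a change of 1.5-fold or more. The MIRI and sham ranges of the same 3 genes did not overlap, as for 16.7% of all genes in that direction and 17% in the other. No gene of the set had an adjusted p of 0.05 or less, a level that 2 of the 14644 genes, 0.0137%, reached in edgeR's test. The adjusted p depended on the tool and the filter: with DESeq2 it was 0.00161 for Postn, 1.84e-05 for Acta2 and 0.000214 for Meox1, where 2025 genes were under 0.05, and without the filter edgeR gave 0.0153, 0.0086 and 0.0109. With single libraries left out it reached 0.284 for each. Acta2 and Meox1 were called with every single library left out, whereas Postn had an unadjusted p of 0.0122, 0.0133, 0.0118 and 0.0106 (edgeR) without sham 2, sham 3, MIRI 1 and MIRI 3. Without the library labelled MIRI 2, 5 genes were called, Postn at a log2 fold change of 1.53, Acta2 at 1.11 and Meox1 at 1.80, with Gsn at -0.90 and Dpt at -1.18 lower, in a fit that called 30.2% of all genes and gave 6 of the 10 an adjusted p under 0.05. Of the 9 neutrophil markers 3 were called higher in MIRI against sham, though the MIRI and sham ranges of all 9 overlapped. None was at 0 in any library, but Cd177, 1 of those called, was at 0.0992 CPM in sham 2, below the level of 3 counts. The summed level of the 9 markers was high in the 4 hearts with low Gsn and Dpt and near that of sham in MIRI 2 and GXNI 1. The sums of cardiomyocyte markers, pericyte markers and the further resident fibroblast genes described below split the hearts as Gsn and Dpt did. The further resident genes summed to 801.4 to 1095 CPM in those 4 hearts and 1388 to 2210 CPM in the rest. The further activation genes split them in the opposite direction, at 1228 to 2575 CPM against 437.4 to 853.1 CPM. The summed cardiomyocyte markers were at 37610 to 42390 CPM in those 4 hearts and 52370 to 61460 CPM in MIRI 2, GXNI 1 and sham. The summed pericyte markers were at 626.6 to 798 CPM against 953 to 1353 CPM. Of the pericyte markers, Rgs5, Abcc9 and Colec11 split the hearts this way. Cspg4 split them the opposite way, at 37.74 to 43.98 CPM against 20.25 to 33.72 CPM. Pdgfrb, Kcnj8, Notch3, Vtn and Higd1b overlapped. The same sets of hearts overlapped for endothelial (808 to 1229 against 699 to 957 CPM), smooth muscle (353 to 417 against 342 to 476 CPM) and macrophage sums (444 to 702 against 375 to 655 CPM). The part of any of these cell types in the Gsn and Dpt values was not tested.

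**Figure D2:**
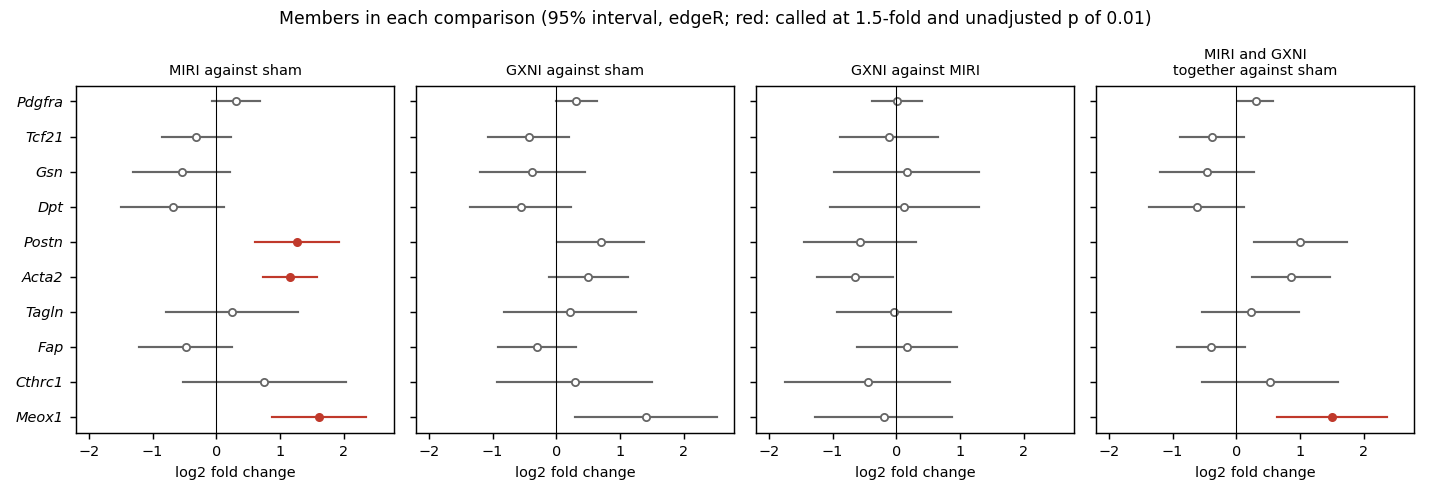
Log2 fold change of each gene in the 4 comparisons (point, estimate; line, 95% interval from edgeR). Filled red points are the genes called, Postn, Acta2 and Meox1 in MIRI against sham and Meox1 in the reperfused hearts together against sham; in GXNI against MIRI the interval of Acta2 alone lay wholly below 0.

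In GXNI against sham 0 of the 10 genes were called, where 4.21% of 14695 genes were called, 2.67% higher and 1.54% lower, and 0% passed an adjusted p of 0.05. The log2 fold changes of the 3 genes that had risen in MIRI hearts were 1.41 (standard error 0.47) for Meox1, 0.70 (0.29) for Postn and 0.50 (0.26) for Acta2, with unadjusted p of 0.0206, 0.0458 and 0.0947 in edgeR's test. Pdgfra was the 1 gene of the set whose GXNI and sham ranges did not overlap, as for 13.5% of all genes in the higher direction and 15.9% in the lower. Meox1 was called with DESeq2, at an unadjusted p of 0.00312. Without the library labelled GXNI 1, 4 genes were called in a fit that called 17.8% of all genes. These were Gsn at -0.91, Dpt at -1.05, Postn at 0.93 and Meox1 at 1.76, each with an adjusted p of 0.0196 to 0.0401 in edgeR's test. Over all alternatives the adjusted p of these genes reached 0.829, 0.592, 0.504 and 0.502.

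GXNI against MIRI asked whether the treatment changed the response, and 0 of the 10 genes were called, as against 0.0203% of 14762 genes, all of them lower. Acta2 came nearest. It lay lower in each GXNI heart than in any MIRI heart, as for 1.38% of all genes in that direction and 1.29% in the other. MIRI 2 was the highest of the MIRI hearts for Acta2, at 188 CPM, and GXNI 3 the lowest of the GXNI hearts, at 78.8 CPM. With the labels of this pair exchanged, the Acta2 ranges of the groups would overlap. By the deposited labels the log2 fold change of Acta2 was -0.65 (standard error 0.25, 95% interval -1.25 to -0.04, unadjusted p = 0.039, adjusted p = 1, edgeR). Postn was at -0.57, with a 95% interval of -1.45 to 0.31, and Meox1 at -0.20, with an interval of -1.28 to 0.88, so that a lowering of more than 1.5-fold was within the interval of each. Among all genes tested 47 had an unadjusted p under 0.05. The study reports far more genes changed between these groups, at the same limits on fold change and unadjusted p. Without the libraries labelled MIRI 2 and GXNI 3, Postn was at 77.1 and 78.1 CPM in MIRI and at 28.6 and 39.9 CPM in GXNI hearts. That pair holds the lowest Postn value of the MIRI and the highest of the GXNI hearts, so that the lower values in GXNI follow from the choice of libraries and are given without a test.

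The reperfused hearts pooled do not depend on which of them carry which label. Of the 10 genes, 1 was called, Meox1, at a log2 fold change of 1.503 (standard error 0.39, unadjusted p = 0.00309, adjusted p = 0.0867, edgeR), where 5.52% of 15207 genes were called higher, 2.85% lower and 8.38% in either direction, and 0.0592% passed an adjusted p of 0.05. Its ranges overlapped through GXNI 1, and without sham 1 or sham 2 its unadjusted p was 0.0171 or 0.0167. The fold change was 2.01 for Postn and 1.82 for Acta2, at unadjusted p of 0.0116 and 0.0109 in edgeR's test, and both were called with DESeq2 at adjusted p of 0.0288 and 0.03, the lowest of all alternatives, under which they reached 0.283 and 0.289. The median log2 fold change was -0.42 over the 4 resident genes and 0.70 over the 6 myofibroblast genes, beside 0.01 over all genes tested.

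Count ratios within a library were formed after the values had been seen, and are given without a test. Per count of Pdgfra, Postn had 0.465 to 0.563 counts in sham hearts, 1.24, 0.707 and 1.05 in MIRI and 0.448, 0.675 and 0.897 in GXNI hearts. GXNI 1 alone of the reperfused hearts lay below the sham range. Tcf21 had 0.132, 0.132 and 0.138 counts per count of Pdgfra in sham, 0.0667, 0.105 and 0.0908 in MIRI and 0.11, 0.0662 and 0.0631 in GXNI hearts, so that all 6 reperfused hearts lay below sham, MIRI 2 and GXNI 1 included. Dpt had 1.56 to 2 counts per count of Pdgfra in sham hearts, and MIRI 2 at 1.58 and GXNI 1 at 1.49 lay inside and just below that range while the other 4 lay at 0.42 to 0.85. The ratio to Pdgfra thus separated the reperfused from the sham hearts for Tcf21 and left MIRI 2 among the sham hearts for Dpt. Acta2 had 1.32 to 1.98 counts per count of Pdgfra in sham, 2.21 to 3.42 in MIRI and 1.81, 2.51 and 1.14 in GXNI hearts, so that GXNI 1 lay inside and GXNI 3 below the sham range.

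**Figure D3:**
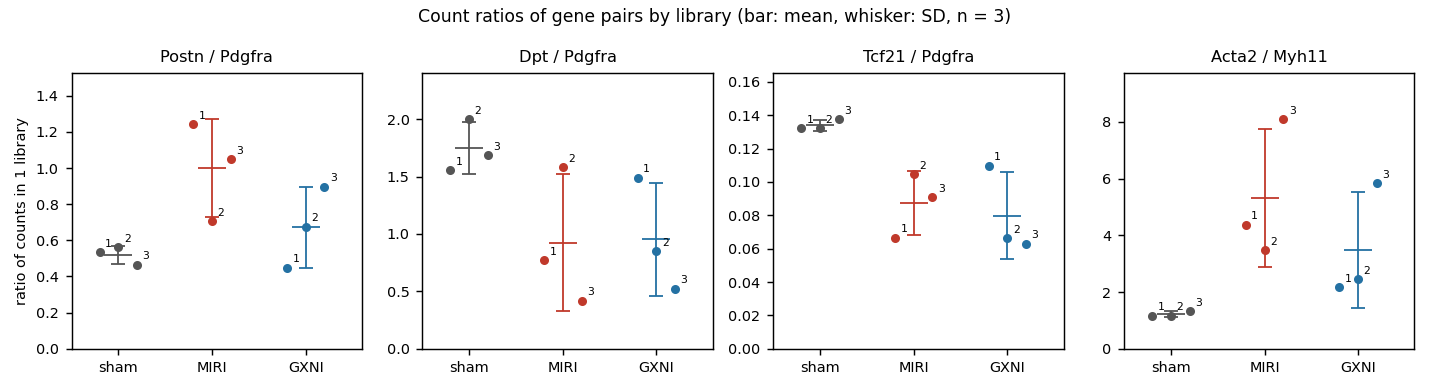
Counts of 1 gene per count of another in the same library, by group (bar, mean; whisker, SD, n = 3). For Tcf21 per Pdgfra the 6 reperfused hearts (0.0631 to 0.11) lay below the sham hearts (0.132 to 0.138), and for Acta2 per Myh11 they (2.16 to 8.09) lay above the sham hearts (1.16 to 1.33). The Acta2 ratio is also high where Myh11 is low, as in GXNI 3, whose Acta2 level lay inside the sham range.

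Acta2 is also expressed by vascular smooth muscle, so it was set beside 8 smooth muscle markers, all of which passed the filter. Their summed level was 342 to 405 CPM in sham, 353 to 476 CPM in MIRI and 348 to 417 CPM in GXNI hearts, and none was at 0 in any library. In MIRI against sham 1 of the 8, Synpo2, was called higher at a log2 fold change of 0.78 and none lower (6.15% and 2.82% of all genes), with a median of -0.40, and 0 were called in the reperfused hearts together. Myh11, the smooth muscle myosin heavy chain, was at 57.3 to 75.8 CPM in sham, 20.4 to 54.2 CPM in MIRI and 13.5 to 60.8 CPM in GXNI hearts. Acta2 had 1.17, 1.16 and 1.33 counts per count of Myh11 in sham, 4.38, 3.47 and 8.09 in MIRI and 2.16, 2.44 and 5.83 in GXNI hearts, with no overlap between sham and reperfused hearts, unlike its ratio to Pdgfra. Of 9 pericyte markers 1, Abcc9, was called lower in MIRI against sham at -1.15 and none higher, beside the same shares of all genes. The summed level of 9 mesothelial markers was 100.4 CPM in GXNI 1 and 10.8 to 32.3 CPM in the other 8 hearts, GXNI 1 being also the heart with the most Gsn and Dpt, and its part in these levels was not tested.

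Other genes of the pathway are given for the reperfused hearts together against sham, where 5.52% of all genes were called higher and 2.85% lower. Of 15 further resident fibroblast genes 1 was called higher, Mfap5, a microfibril glycoprotein, at a log2 fold change of 1.24, and 1 lower, Hsd11b1, which regenerates active glucocorticoid, at -0.71. Their median was -0.27. Of 22 further activation genes 9 were called higher and 1 lower, beside those shares of all genes, with a median of 1.09. Ccn2 (CTGF), a matricellular target of TGF-beta and YAP, rose by 3.47 on the log2 scale, from 33.6 to 48.0 CPM in sham to 130.4 to 745 CPM in the reperfused hearts. Ckap4 rose by 1.56 and the collagen cross-linking enzyme Loxl2 by 1.12, and Lrrc15, a surface marker of TGF-beta-driven myofibroblasts, fell by 2.17 on that scale. In MIRI and in GXNI hearts against sham 8 and 7 of these activation genes were called higher (6.15% and 2.67% of all genes) and 0 and 1 lower (2.82% and 1.54%), and in GXNI against MIRI 0 of the 22 were called.

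Of 12 contractile and SRF target genes other than Acta2 and Tagln, 9 were called higher and 0 lower in the reperfused hearts together (5.52% and 2.85% of all genes), with a median of 1.14. Zyx, the focal adhesion protein zyxin, rose by 1.28, Vcl, vinculin, by 0.89 and Srf itself by 0.59 on the log2 scale, and the reperfused and sham ranges of all 9 called genes did not overlap, as for 7.96% of all genes in that direction and 8.89% in the other. Of the 12, 8 were called higher in MIRI hearts and 4 in GXNI hearts relative to sham (6.15% and 2.67% of all genes). Fhl2 was called lower in GXNI hearts at -0.78, and 0 of the 12 were called in GXNI against MIRI. These genes are also expressed in cardiomyocytes and other cells. Of 10 proliferation genes 8 passed the filter and 6 were called lower, beside 2.85% of all genes, Aurkb at -2.60, Mki67 at -2.06 and Ccna2 at -2.03, with none higher. Mki67 was at 3.77 to 5.43 CPM in sham and 0.47 to 1.91 CPM in the reperfused hearts. In GXNI against MIRI only 3 of the 10, Mki67, Top2a and Rrm2, passed the filter. Aurkb, Ccna2 and Cdk1 thus passed here only with the sham hearts included, which favours a call as lower. In the reperfused hearts Aurkb was at 0.058 to 0.279 CPM and Ccna2 at 0.0496 to 0.406 CPM, near or below the level of 3 counts in several hearts. At 24 h the activation and contractile lists thus held more genes called higher than lower. The proliferation list held genes called lower only, some of which passed the filter through the sham hearts.

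**Figure D4:**
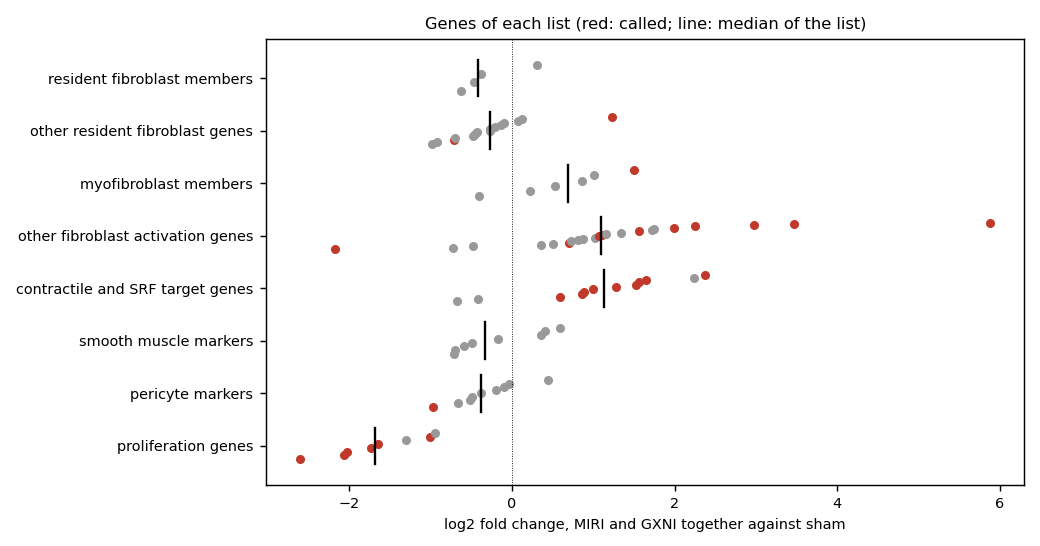
Log2 fold change in the 6 reperfused against the 3 sham hearts for each gene of 8 lists that passed the filter (red, called; black line, median of the list). The activation genes (median 1.09) and the contractile and SRF target genes (median 1.14) lay mostly to the right of 0. The proliferation genes (median -1.68) lay to the left, but only 3 of that list passed the filter in GXNI against MIRI. The others shown passed here only with the sham hearts included, which favours a position left of 0.

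The genes most alike to 3 members over the 9 libraries were sought among 10431 genes with a mean count of at least 100, by the root mean square difference of centred log2 CPM. For Pdgfra they were Lipo3 at 0.04, Trmt2a at 0.05 and Appbp2 at 0.07, against a standard deviation of Pdgfra of 0.21. Acot9 and Msmo1 at 0.18 and Piga at 0.19 were nearest to Postn, whose standard deviation was 0.66. Fzd2 at 0.23, Polr1e at 0.24 and Napepld at 0.26 were nearest to Acta2, whose standard deviation was 0.58.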

How the data were processed

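Total RNA of heart tissue was sequenced in 9 mice. The submitters' processing notes name HISAT2, featureCounts (Subread), DESeq2 and mm10; the versions, the annotation release and the strand setting are not given in the sources used here. The values deposited by the authors are counts of reads per gene, without normalization, 1 column per mouse. 0 columns of other samples were used. Of 54532 gene identifiers, 123 had no symbol in GENCODE M21 (GRCm38). The study describes the animals of a group as independent.

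All genes of the libraries compared entered 1 fit per comparison in edgeR 4.0.16 under R 4.3.3 (TMM factors, default filter on low counts, quasi-likelihood F test, no covariates). Calls required a change of 1.5-fold or more with an unadjusted p no higher than 0.01, and adjusted p are Benjamini-Hochberg values over all genes tested. Normalised CPM are counts scaled to the library total times TMM factors over the 9 libraries. Ranges do not overlap where all values of 1 group exceed all of the other. Intervals and the limit of 3 counts cover counting error or the spread between mice only. No pair of libraries agreed within sampling noise (smallest chi-square per degree of freedom 15.5). The fits were tested on simulated counts.

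The 10 genes and all lists were chosen with earlier results of these data known. All 10 are named; from each other list at most the 3 called genes of lowest p in each direction and the defining markers are named. The alternatives were DESeq2 1.42.0, RLE factors, mitochondrial genes left out, no filter, an adjusted p of 0.05, the replicate number as a block, all 9 libraries in 1 fit and libraries left out. The search with 1 mismatch and the count ratios were added after the values were seen. Promoters are from RefSeq (GRCm38.p6).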

Additional observations from a re-analysis of the deposited data

How the results depend on the processing

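With an adjusted p of at most 0.05 required, 0 of the 10 genes were called in MIRI against sham and 0 in the reperfused hearts together. With DESeq2 and without the filter, 1 gene was called in GXNI against sham and 3 in the reperfused hearts together. MIRI against sham kept 3 calls and GXNI against MIRI 0. DESeq2 called 8.07%, 5.01%, 0.0391% and 7.485% of all genes in MIRI against sham, GXNI against sham, GXNI against MIRI and the reperfused hearts together. Without the filter these shares were 8.62%, 5.095%, 0.03555% and 6.42%. Under these alternatives the 3 genes of MIRI against sham also had an adjusted p under 0.05. With RLE factors or mitochondrial genes left out each count was that of the text, as it was with all 9 libraries in 1 fit for the 3 comparisons between labelled groups. Leaving out 1 library at a time gave 2 to 5 calls in MIRI against sham, in fits that called 3.4% to 30.2% of all genes. It gave 0 to 4 in GXNI against sham (1.16% to 17.8% of all genes) and 0 in GXNI against MIRI (0.00657% to 0.0789%). In the reperfused hearts together it gave 0 to 3 (2.97% to 15.3%). The upper ends were reached without the library labelled MIRI 2 or GXNI 1, and in the reperfused hearts together the 0 was reached without sham 1 or sham 2. Without MIRI 2 and GXNI 3, 1 gene, Postn, was called in GXNI against MIRI, beside 4.99% of all genes. Its direction there follows from the libraries left out. In the reperfused hearts together 2 genes, Acta2 and Meox1, were called without that pair, beside 9.83% of all genes. The causes of these differences were not tested, and the fits with libraries left out also held fewer hearts.

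The labels do not say that the replicate numbers pair the mice, and correlations over 3 libraries per group cannot decide it. Deviations of same-numbered libraries correlated at -0.115, 0.103 and 0.141 between sham and MIRI, at 0.0968, -0.093 and 0.151 between sham and GXNI, and at -0.514, 0.15 and 0.767 between MIRI and GXNI. Those of differently numbered MIRI and GXNI libraries lay between -0.824 and 0.786. With the number as a replicate block, 3, 1, 0 and 1 genes were called in the 4 comparisons, beside 7.27%, 3.9%, 0.0203% and 9.87% of all genes. The 1 in GXNI against sham was Meox1 (log2 fold change 1.29, unadjusted p = 0.00488, edgeR).

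Signs turned only among values that were not called. With 1 library left out at a time, Tagln ranged from -0.082 to 0.49 in MIRI against sham, -0.11 to 0.46 in GXNI against sham and -0.10 to 0.47 in the reperfused hearts together, the low ends without sham 2. In GXNI against MIRI the ranges were -0.078 to 0.11 for Pdgfra, -0.43 to 0.049 for Tcf21, -0.38 to 0.53 for Gsn, -0.37 to 0.63 for Dpt, -0.035 to 0.41 for Fap, -0.72 to 0.10 for Cthrc1, -0.66 to 0.15 for Meox1 and -0.17 to 0.18 for Tagln. Pdgfra was -0.00058 with DESeq2 and -0.13 without MIRI 2 and GXNI 3, where Tcf21 was 0.023. The 7 to 22 counts of Tagln and 8 to 48 of Cthrc1 limit what can be seen for these genes.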
